A study of Rattus norvegicus with 24 samples.

Results

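Urethral RNA of 24 female rats was examined for 44 genes of the ATP-dependent chromatin remodelers, chosen by name from the 32883 genes of the table as the SWI/SNF subunits (Smarc, Arid, Actl6 and Pbrm1 genes), the CHD family, the INO80, SRCAP and p400 genes, and Atrx, Bptf, Hells, Smarcal1 and Smarcad1. All rats underwent simulated vaginal delivery (SVD), a pudendal nerve crush with vaginal distension, and were then injected into the arterial circulation. Adult virgin Sprague-Dawley rats received saline, allogeneic mesoangioblasts (MABsallo, vessel-associated progenitor cells grown from the hind-limb muscle of another rat) or the same kind of cells that stably expressed VEGF (MABsallo-VEGF, labelled VEGF OE). Urethras were taken 3d or 7d later, 4 rats in each of the 6 groups, and 2 of the 4 MABsallo-VEGF rats at 7d are labelled recovery. By the study's methods, injected cells carried a lentiviral reporter (eGFP and luciferase) or, for the VEGF cells, a lentiviral VEGF vector with truncated CD34 under the SFFV promoter. Whether the VEGF cells also carried the reporter, and whether the MABsallo cells given to these rats were transduced, is not clear from the sources used here. Whole urethra was sequenced from the 3ʹ ends of its mRNA, and host and injected cells were not separated.

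Chromatin remodelers use ATP to slide, evict or exchange nucleosomes. SWI/SNF complexes (BAF and PBAF) are built around the ATPase Smarca2 or Smarca4 and open enhancers and promoters, and in muscle they are recruited by myogenic factors through Smarcd3. ISWI enzymes space nucleosomes, CHD enzymes act in elongation, enhancer control and the repressive NuRD complex, and INO80, SRCAP and p400 exchange the histone variant H2A.Z.

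Of the 44 genes, 40 had a mean of at least 2 normalized counts and were tested. Smarcb1, a core SWI/SNF subunit, Hells, a Snf2 ATPase of DNA methylation, Ino80b and Arid4b were listed at or near 0 in every library and were not tested. In each library 1 read was worth 1.67 to 9.23 normalized counts. The 40 genes had a median level of 1317 normalized counts (3ʹ counts, not scaled by length), above the median of 210.8 over all 16287 genes tested. A gene was called changed when limma gave an adjusted p below 0.05 and the log2 fold change was beyond 1, the study's own thresholds. By group medians, 14 of the 40 were highest in MABsallo at 3d and 18 in MABsallo-VEGF at 3d, while 26 were lowest in saline at 7d. None was highest in saline at 3d. Over all genes tested, 27.9% and 17.2% were highest in those 2 groups and 23.2% were lowest in saline at 7d.

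**Figure D1:**
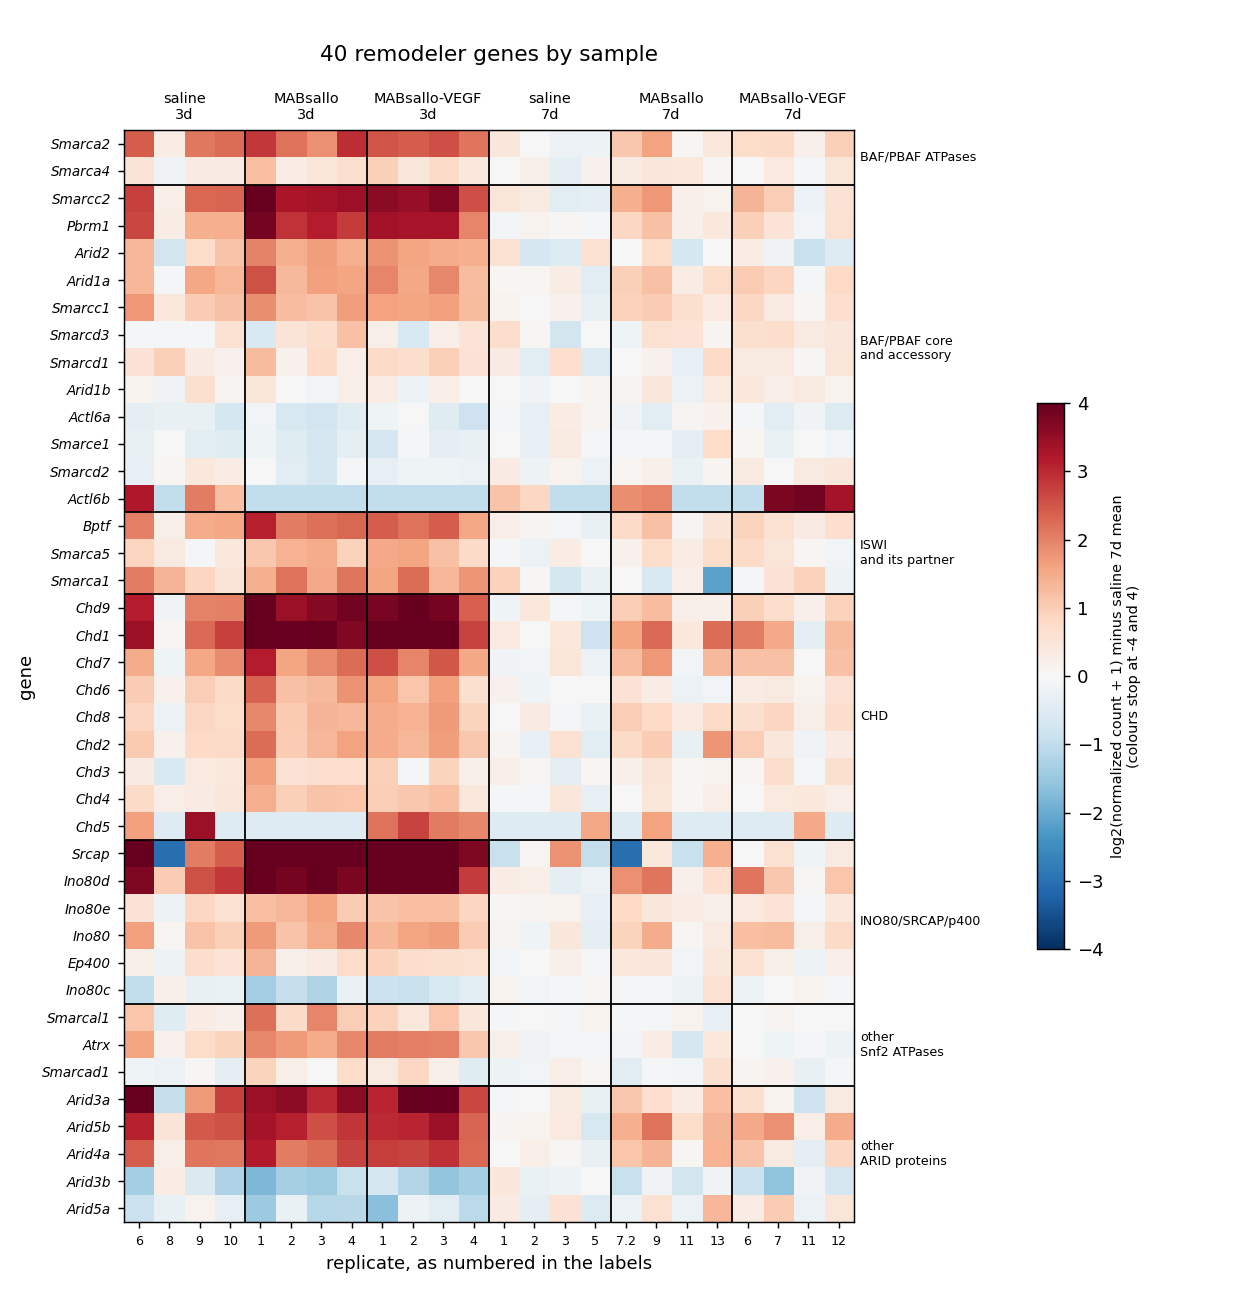
Heat map of the 40 tested remodeler genes (rows, grouped by complex) in the 24 samples (columns, numbered as in the labels). Colour is log2(normalized count + 1) minus the saline 7d mean, and most rows are darkest red in the 8 cell-treated samples at 3d, while saline 3d replicate 8 is pale like the 7d samples.

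Libraries had 2170695 to 10166052 reads. Cell-treated libraries at 3d had 2170695 to 4491900 reads, saline libraries at 3d 4851797 to 5249467 and the 7d libraries 5244129 to 10166052. Depth thus did not overlap between cell-treated and saline libraries at 3d, nor between 3d and 7d in cell-treated rats. The part of depth in the results was not tested and cannot be told apart from that of treatment and time. Some libraries stood apart from their groups at 3d. The median difference of the 40 genes from the saline 7d mean, on the log2 scale, was 1.21, 0.05, 0.83 and 0.74 in saline replicates 6, 8, 9 and 10 at 3d. It was 1.77, 1.16, 1.42 and 1.39 in MABsallo and between 1.46 and 1.57 in replicates 1 to 3 of MABsallo-VEGF and 0.95 in its replicate 4 at 3d. At 7d it lay between -0.23 and 0.64 in the 12 samples. Saline replicate 6 was thus above the lowest MABsallo sample, MABsallo-VEGF replicate 4 was the lowest of its group, and saline replicate 8 was within the 7d range. Results at 3d are given also for the 22 samples without saline replicate 6 and MABsallo-VEGF replicate 4, where 39 genes were tested. Each of these 2 libraries was the one of its group nearest to the other group in the remodelers' own level, so that leaving them out widens the difference, while saline replicate 8, which widens it too, is kept. The 22-sample values are therefore a description of how far the calls rest on these libraries and support nothing by themselves. Replicate 8 also had the lowest sum of 6 urothelial markers at 3d (780 normalized counts, 16536 at most in the other 3 saline samples) and the highest sum of Schwann cell markers (33419). All 7 smooth muscle markers and 5 of the 6 urothelial markers were above 0 in every sample.

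The abundance of other transcripts moved with the remodelers. A transcript listed as AY172581.24 had 1321340, 77918, 232771 and 370384 normalized counts in saline at 3d, 2429870 to 4767190 in MABsallo and 621953 to 5217200 in MABsallo-VEGF, the lowest of these in replicate 4. At 7d it ranged from 49277 to 207147. Its share of all counts at 3d was 0.4088% to 7.31% in saline, 12.13% to 20.7% in MABsallo and 3.458% to 20.57% in MABsallo-VEGF. At 7d that share was at most 1.142%. Within each of the 6 groups the sample with the fewest AY172581.24 counts was also the lowest for the remodelers. Small noncoding RNA summed to 1517 to 2899 normalized counts in saline, 4725 to 20264 in MABsallo and 2146 to 8634 in MABsallo-VEGF at 3d. The 6 macrophage markers summed to 9810 to 18266 in saline and 895 to 10116 in MABsallo at 3d, with overlap, and the 5 fibroblast markers to 339580 to 510379 and 54565 to 299904. In MABsallo-VEGF these sums were 3244 to 15202 and 92692 to 635832. Mast cell markers (523 to 1878 in saline, 230 to 369 in MABsallo) and Schwann cell markers (2766 to 33419 and 1221 to 1915) did not overlap between these groups, nor did the fibroblast markers. The part of these differences, and of RNA or library quality, in the remodeler results was not tested. In whole tissue, more cells of a type and more RNA per cell cannot be told apart.

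**Figure D2:**
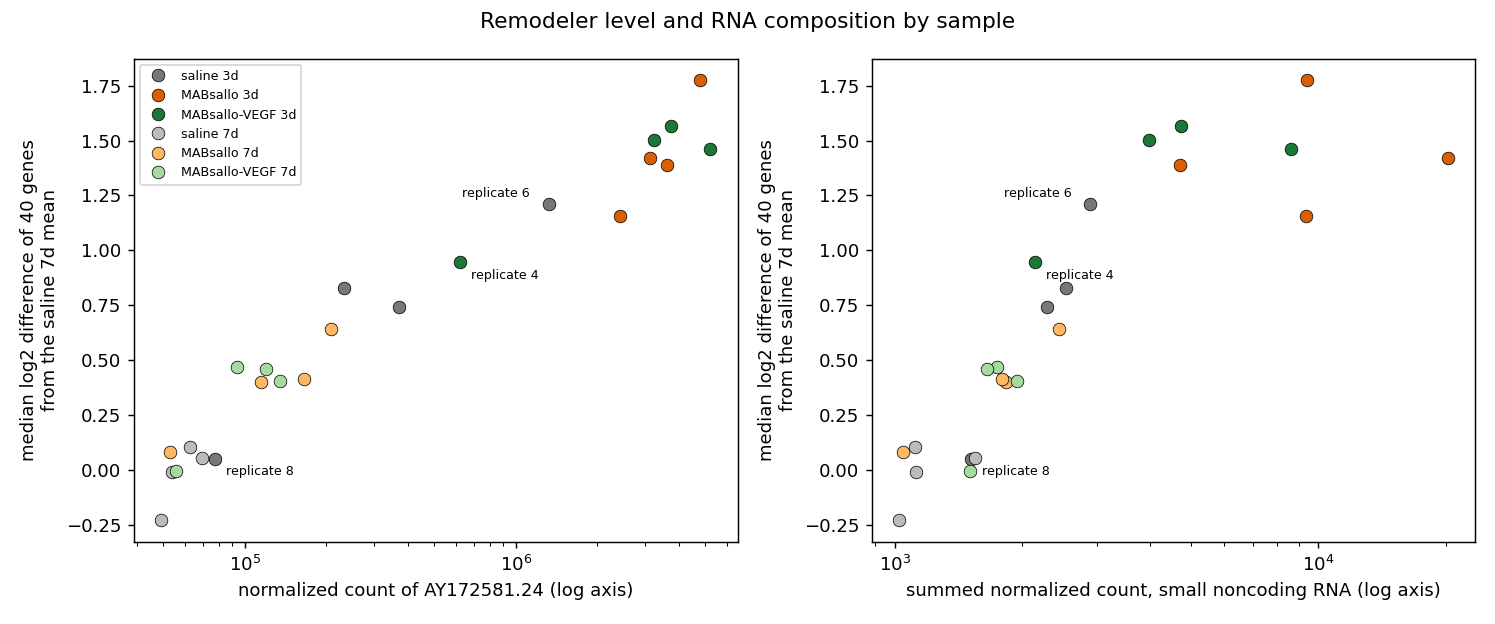
Median log2 difference of the 40 genes from the saline 7d mean (vertical axis) against the normalized count of AY172581.24 (left) and the summed normalized count of small noncoding RNA (right), both on log horizontal axes, 1 point per sample. Cell-treated samples at 3d sit at the upper right, with MABsallo-VEGF replicate 4 at 0.95 and saline replicate 8 at 0.05 apart from their groups.

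At 3d the comparison with saline asks what the injected cells changed in the urethra. In MABsallo 8 of the 40 genes rose and none fell: Srcap, Chd9, Chd1, Ino80d, Smarcc2, Pbrm1, Smarcal1 and Bptf. These were 20% of the genes, against a background of 9.4% of all genes called higher. Another 6 (Atrx, Chd6, Chd8, Smarca5, Ino80e and Chd4) had an adjusted p below 0.05 with a smaller change, so that 14 (35%) passed that limit alone against 10.7% of all genes. The median log2 fold change of the 40 genes was 0.74 and that of all genes 0.07. In 14 genes (35%) the 4 MABsallo samples all lay above the 4 saline samples, against 9.44% of all genes. In MABsallo-VEGF none of the 40 passed limma's test, against 0.0307% of all genes called higher, while 17 (42.5%) had an unadjusted p below 0.05, against 17.9% of all genes. DESeq2 called 3 and edgeR 0 in this comparison, beside 397 and 1 of all genes called in either direction. The median was 0.58 beside 0.04 for all genes, and in 4 genes (10%) the groups did not overlap, against 2.36%. Both comparisons share the saline samples. With every library scaled to the same total, the median of all genes moved to -0.19 in MABsallo and -0.18 in MABsallo-VEGF. That of the 40 genes moved to 0.45 and 0.30. At this scaling 5 of the 40 genes were called in MABsallo, beside 2123 of all genes called in either direction. Without it these counts were 8 and 1997.

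With the 22 samples, 12 of 39 genes rose in MABsallo (30.8%, background 13.8%) and 12 rose in MABsallo-VEGF (30.8%, background 11.4%), and none fell in either. Over all genes, 1997 were called in either direction in MABsallo and 5 in MABsallo-VEGF with 24 samples. Leaving out saline replicate 6 alone gave 9 of the 40 in MABsallo-VEGF (1112 of all genes). Leaving out MABsallo-VEGF replicate 4 alone gave 8 (1258 of all genes). Leaving out saline replicate 8 lowered the count in MABsallo to 1, Chd9, and the count over all genes to 369. The log2 fold changes were then 1.43 for Chd9, 2.95 for Srcap, 1.30 for Pbrm1, 1.28 for Ino80d, 1.2 for Chd1, 1.16 for Smarcc2, 0.94 for Smarcal1 and 0.73 for Bptf. Leaving out MABsallo replicate 1 lowered the count to 3 (732 of all genes). Leaving out saline replicates 6 and 8 and MABsallo-VEGF replicate 4 together, a choice made after seeing the data, gave 5 and 6 genes. Over all genes that fit called 1567 in MABsallo and 1157 in MABsallo-VEGF. When only the saline and MABsallo samples at 3d were fitted, none of the 40 was called and 5 of all genes were. In that fit 20 of the 40 had an unadjusted p below 0.05, and the share of all genes below it is not given. In the fit of all samples 24 of the 40 (60%) were below it, beside 31.4% of all genes.

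**Figure D3:**
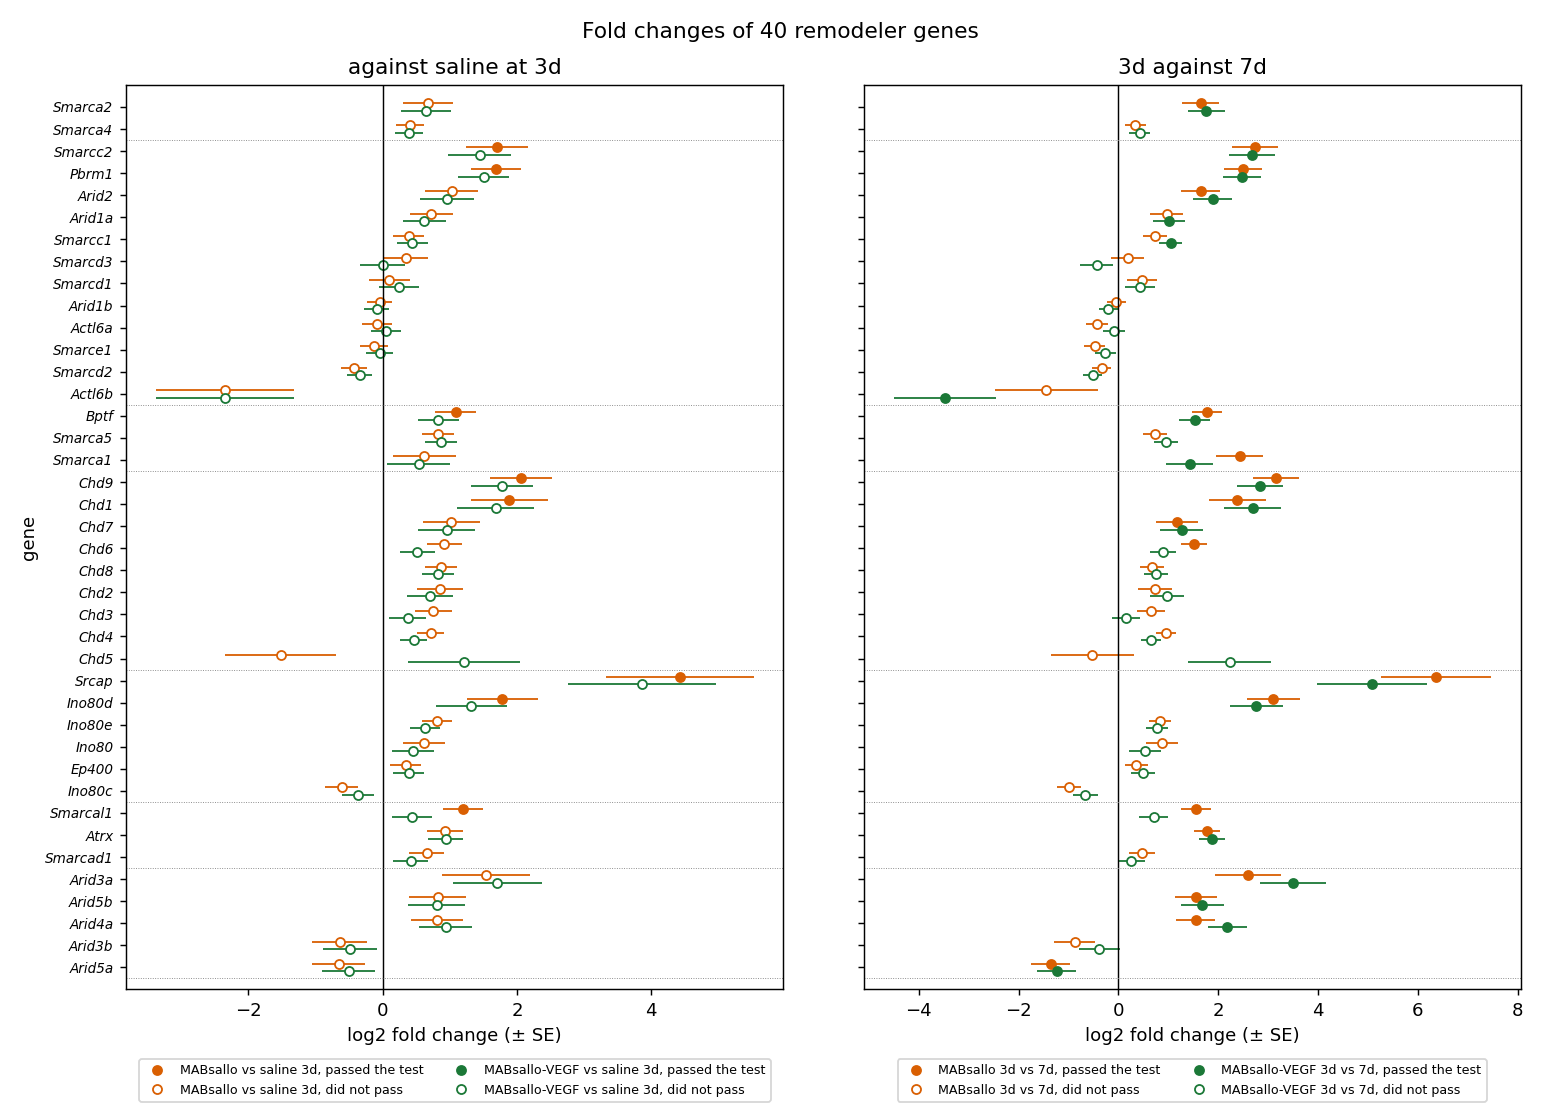
Log2 fold changes (± SE, horizontal axis) of the 40 genes against saline at 3d (left) and at 3d against 7d (right) for MABsallo (orange) and MABsallo-VEGF (green), 4 samples per group. Filled points passed the test. On the left 8 filled points are seen, all MABsallo and all to the right of 0, and on the right 17 higher genes are filled for each cell group.

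Promoters were read to show what lies before the genes that moved together. RefSeq (GRCr8) gave 36 of the 44 genes a single promoter entry, 3 genes several and 5 none. GRCr8 is not the build of the counts. The 250 bases before each annotated start had a median GC content of 60.8% in the 36 genes (38.4% to 82.4%) and 51.2% over 33469 entries. The observed over expected CpG ratio was above 0.6 in 26 of the 36 and in 11056 of the 33469 entries. Its median was 0.82 in the 36 and 0.383 over all entries. On either strand, the SP-family box GGGCGG was found in 23 of the 36 (63.9%, all entries 30.5%), the ETS motif CCGGAAG in 6 (16.7%, all entries 7.27%) and the CCAAT box CCAAT in 12 (33.3%, all entries 34%). Neighbouring matches of GGGCGG and CCGGAAG can share bases, and a match is a description only. Of the 8 genes that rose in MABsallo at 3d, 6 had a single entry, and 4 are shown for their contrast: Bptf with the highest GC content of them (78.4%), Chd1 with the lowest (38.8%), Srcap with the largest change, and Smarcal1, the only one of them with a CCAAT box. Capitals mark the 3 motifs.
Bptf, GRCr8 chr10:92582414-92582663, minus strand: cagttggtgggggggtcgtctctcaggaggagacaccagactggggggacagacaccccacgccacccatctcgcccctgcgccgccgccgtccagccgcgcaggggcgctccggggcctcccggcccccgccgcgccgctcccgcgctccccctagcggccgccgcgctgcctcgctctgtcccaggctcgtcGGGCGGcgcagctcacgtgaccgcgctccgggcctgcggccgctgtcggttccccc
Chd1, GRCr8 chr1:65336966-65337215, plus strand: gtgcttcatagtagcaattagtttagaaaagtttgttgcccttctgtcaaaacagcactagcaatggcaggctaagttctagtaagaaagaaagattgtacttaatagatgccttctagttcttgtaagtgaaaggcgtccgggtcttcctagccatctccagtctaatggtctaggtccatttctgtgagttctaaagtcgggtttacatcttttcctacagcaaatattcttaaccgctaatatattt
Srcap, GRCr8 chr1:191553793-191554042, plus strand: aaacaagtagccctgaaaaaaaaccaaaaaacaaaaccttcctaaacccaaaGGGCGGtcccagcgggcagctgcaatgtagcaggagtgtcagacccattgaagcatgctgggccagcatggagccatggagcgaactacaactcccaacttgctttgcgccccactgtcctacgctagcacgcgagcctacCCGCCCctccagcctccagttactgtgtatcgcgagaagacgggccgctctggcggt
Smarcal1, GRCr8 chr9:81689218-81689467, plus strand: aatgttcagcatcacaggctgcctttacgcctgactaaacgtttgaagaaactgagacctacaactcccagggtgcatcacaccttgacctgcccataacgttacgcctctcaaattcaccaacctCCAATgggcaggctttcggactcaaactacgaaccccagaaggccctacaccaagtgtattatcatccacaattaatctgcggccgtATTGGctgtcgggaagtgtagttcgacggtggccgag
Bptf holds 1 GGGCGG box and Srcap 2, 1 on each strand, while Smarcal1 holds 2 CCAAT boxes, 1 on each strand, and Chd1 none of the 3 motifs. Chd1 and Bptf differed in GC content and both rose in MABsallo at 3d.

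Both SWI/SNF ATPases were on the higher side of saline without passing the test. Smarca2 (BRM) had 5923, 1356, 4775 and 5117 normalized counts in saline, 7789, 4940.1, 3905 and 8403 in MABsallo and 6299, 5909, 6584 and 4858 in MABsallo-VEGF at 3d. Saline replicate 8 stood far below the other saline samples, which overlapped the cell-treated ones. The log2 fold changes were 0.67 ± 0.37 (SE) and 0.65 ± 0.37 (SE). Smarca4 (BRG1) had 3970.2, 2505, 3517 and 3484 counts in saline, 6390.1, 3419, 3923 and 4339.8 in MABsallo and 5391, 3775, 4687 and 3749 in MABsallo-VEGF. The 3 groups overlapped and the differences were 0.40 ± 0.21 (SE) and 0.39 ± 0.21 (SE).

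Among the 12 tested core and accessory subunits of BAF and PBAF, Smarcc2 and Pbrm1 rose. Smarcc2 (ENSRNOG00000031135) is a scaffold subunit (BAF170), and its counts were 1498, 274, 1108 and 1129.6 in saline and 4707, 2188, 2280.2 and 2447 in MABsallo. Every MABsallo sample was above every saline sample, and the log2 fold change was 1.70 ± 0.46 (SE), adjusted p = 0.0195. In MABsallo-VEGF the counts were 2752, 2550.3, 2966 and 1358, of which replicate 4 fell inside the saline range, with 1.44 ± 0.46 (SE) and adjusted p = 0.124. Pbrm1 (ENSRNOG00000028227), the polybromo subunit that marks PBAF, had 2104, 404, 889.9 and 904 in saline and 4651, 2429, 2880.3 and 2278 in MABsallo. Here again the groups did not overlap, and the difference was 1.69 ± 0.38 (SE), adjusted p = 0.00904. MABsallo-VEGF had 3363, 3209, 3269 and 1273 counts of Pbrm1, with 1.51 ± 0.38 (SE) and adjusted p = 0.0753, or 2.25 ± 0.32 (SE) and adjusted p = 0.000214 with the 22 samples. Arid2, another PBAF-specific subunit, differed by 1.03 ± 0.40 (SE) in MABsallo and 0.96 ± 0.40 (SE) in MABsallo-VEGF. Both cell groups were wholly above saline in Arid2, and neither difference passed (adjusted p = 0.0771 and 0.198). With the 22 samples the MABsallo difference passed, at 1.26 ± 0.42 (SE) and adjusted p = 0.0358, and that in MABsallo-VEGF did not (1.25 ± 0.45 (SE), adjusted p = 0.0643). The BAF-specific Arid1a differed by 0.72 ± 0.32 (SE) and its paralog Arid1b by -0.05 ± 0.19 (SE) in MABsallo. Smarce1, Actl6a and Smarcd2 were at -0.13, -0.08 and -0.43 in MABsallo and did not pass either. Actl6b, the neuronal actin-like subunit, was near the detection limit, with at most 5 reads in any sample at 3d.

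In the ISWI group Bptf rose in MABsallo. Bptf (ENSRNOG00000047296) reads methylated histone H3 for the NURF complex, and its counts were 4118, 1203, 2827 and 2963 in saline, 8698, 4174, 4644 and 5029 in MABsallo and 5477, 4601, 5494 and 2969.9 in MABsallo-VEGF. Saline replicate 6 came close to the lowest MABsallo sample without reaching it. The log2 fold changes were 1.09 ± 0.31 (SE), adjusted p = 0.0226, and 0.83 ± 0.31 (SE), adjusted p = 0.159. The ATPase Smarca5 (SNF2H) had 1005, 702, 518 and 739 counts in saline, 1157, 1444, 1551 and 1042 in MABsallo and 1584, 1659, 1241 and 931 in MABsallo-VEGF. Its MABsallo values were all above saline, by 0.83 ± 0.24 (SE) on the log2 scale with adjusted p = 0.0254, under the fold limit. Smarca1 (SNF2L) had 317, 199.9, 139 and 109 in saline, 206, 350.1, 222 and 342 in MABsallo and 233, 367, 192 and 263 in MABsallo-VEGF. These groups overlapped.

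Of the 9 CHD genes Chd9 and Chd1 were called in MABsallo, where 8 had positive estimates and only Chd5 a negative one. In MABsallo-VEGF all 9 estimates were positive and none passed. Chd9 (ENSRNOG00000049302) had 2004, 204, 904 and 922 counts in saline, 4352, 2473, 2917 and 3319.9 in MABsallo and 3131, 3934, 3249 and 1184 in MABsallo-VEGF. MABsallo lay wholly above saline, while MABsallo-VEGF replicate 4 lay below saline replicate 6. Its log2 fold changes were 2.06 ± 0.46 (SE), adjusted p = 0.00896, and 1.78 ± 0.46 (SE), adjusted p = 0.078, the latter 2.62 ± 0.42 (SE) and adjusted p = 0.000389 with the 22 samples. Chd1 (ENSRNOG00000014434), which spaces nucleosomes behind elongating RNA polymerase II, had 1756, 172, 783 and 1105 in saline, 2996, 2560.3, 3019 and 2132 in MABsallo and 2860.4, 3209, 2871 and 1069 in MABsallo-VEGF. The pattern was that of Chd9, with replicate 8 lowest in saline and replicate 4 lowest in MABsallo-VEGF. Chd1 differed by 1.89 ± 0.57 (SE), adjusted p = 0.0306, and 1.68 ± 0.57 (SE), adjusted p = 0.135. Its call in MABsallo was lost with edgeR (1.36), when only the compared groups were fitted, and without saline replicate 8 (1.2) or 9 (1.93) or MABsallo replicate 1 (1.83) or 3 (1.82).

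Chd4, the main NuRD ATPase, had 8688, 6024, 6322 and 6918 counts in saline, 13796, 9858, 11198 and 10860.3 in MABsallo and 9922, 10618, 11619 and 6768 in MABsallo-VEGF. MABsallo did not overlap saline, at 0.71 ± 0.20 (SE) and adjusted p = 0.0214. The other NuRD ATPase, Chd3, had 3698, 1928, 3899 and 3934 in saline, 9124, 4420.4, 4671 and 4747 in MABsallo and 5742, 2892, 5433 and 3411 in MABsallo-VEGF. MABsallo was wholly above saline, with replicate 1 far above the rest, but neither difference passed (adjusted p = 0.0639 and 0.503).

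Chd6, Chd7 and Chd8 belong with Chd9 to the subfamily of Chd7, the gene of CHARGE syndrome. Chd6 had 1639, 921, 1622 and 1397 counts in saline, 4210.4, 1849, 2003 and 2826 in MABsallo and 2460.2, 1767, 2548 and 1287 in MABsallo-VEGF. MABsallo was wholly above saline, by 0.92 ± 0.26 (SE) with adjusted p = 0.0231, under the fold limit. Chd8 had 2004, 937, 1955 and 1833 in saline, 4168, 2303, 2834 and 2761 in MABsallo and 3109, 2892, 3612 and 2048 in MABsallo-VEGF. Both cell groups were wholly above saline, by 0.87 ± 0.24 (SE) (adjusted p = 0.0211) and 0.83 ± 0.24 (SE) (adjusted p = 0.102). Chd7 had 1036, 329, 1086 and 1369 in saline, 3238, 1116, 1376 and 1741 in MABsallo and 2217, 1434, 2063 and 1086 in MABsallo-VEGF, and these groups overlapped. Chd2 had 4049, 2203, 3374 and 3315 counts in saline, 9301, 3988, 4902 and 5935 in MABsallo and 5461, 4876, 6291 and 4149.8 in MABsallo-VEGF and did not pass (adjusted p = 0.0884 and 0.285), although MABsallo-VEGF lay wholly above saline. Chd5, a neuronal CHD gene, had at most 4 reads in any sample.

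Srcap (ENSRNOG00000050282) gave the largest fitted change of the 40 genes in MABsallo against saline, from few reads. It is the ATPase that deposits H2A.Z, and its values were 155, 0, 32.2 and 42.2 in saline, 724, 536, 535 and 228 in MABsallo and 470.4, 425, 464 and 107 in MABsallo-VEGF at 3d. In reads these were 45, 0, 9 and 12 in saline, 102, 98, 58 and 42 in MABsallo and 87, 51, 92 and 24 in MABsallo-VEGF. At 7d it had at most 8 reads in any sample. MABsallo did not overlap saline, and the log2 fold change was 4.43 ± 1.10 (SE) with adjusted p = 0.0137. With so few saline reads this value depends on the added constant and was 3.78 with a pseudocount of 5. In MABsallo-VEGF it was 3.87 ± 1.10 (SE), adjusted p = 0.0938. Ino80d (ENSRNOG00000024272), an accessory INO80 subunit, had 696, 106, 304 and 377 counts in saline, 1775, 749.5, 1237 and 721 in MABsallo and 854, 967, 1120 and 361 in MABsallo-VEGF. All MABsallo samples were above saline, by 1.78 ± 0.53 (SE) with adjusted p = 0.0278, and MABsallo-VEGF differed by 1.32 ± 0.53 (SE), adjusted p = 0.182. The ATPase Ino80 had 2252, 764, 1590.3 and 1408 in saline, 2357, 1597, 2049 and 2767 in MABsallo and 1828, 2184, 2311 and 1456 in MABsallo-VEGF. Ep400, the p400 ATPase, had 2094, 1544, 2884 and 2551 in saline, 4572, 2046, 2216 and 2962 in MABsallo and 3325, 2850.4, 2739 and 2685 in MABsallo-VEGF. Both genes overlapped between groups and did not pass. Ino80e differed by 0.81 ± 0.22 (SE), adjusted p = 0.0206, in MABsallo, where it lay wholly above saline, as it did in MABsallo-VEGF. Ino80c was on the lower side in both cell groups, at -0.61 ± 0.24 (SE) and -0.37 ± 0.24 (SE), and did not pass (adjusted p = 0.0877 and 0.446).

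**Figure D4:**
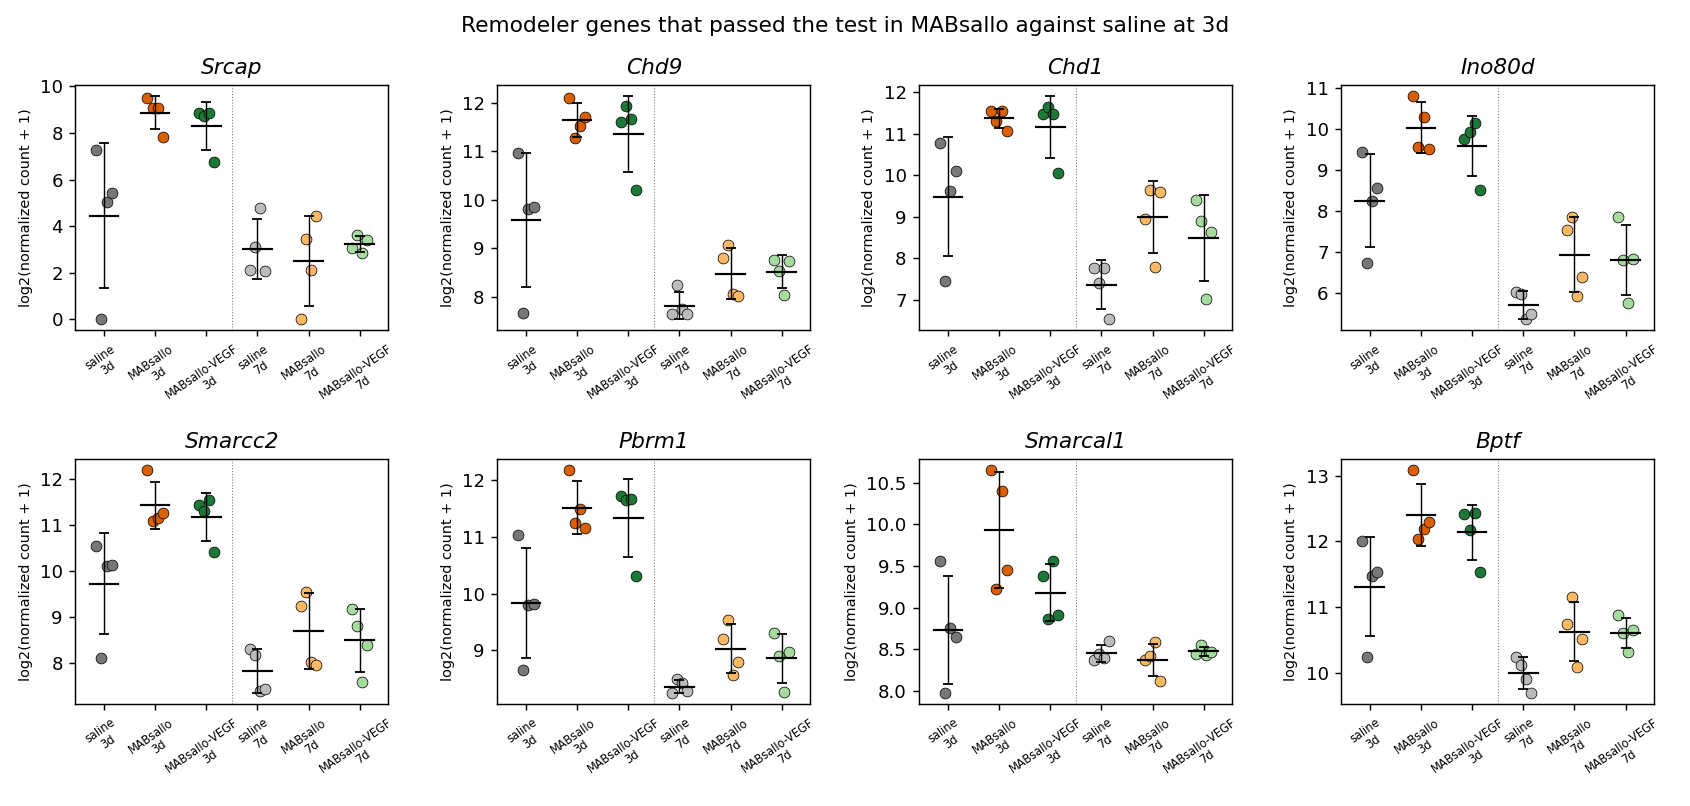
Log2(normalized count + 1) of the 8 genes that rose in MABsallo at 3d, in each of the 6 groups. Points are samples and bars the mean ± SD (n = 4), and saline replicate 8 at 3d is the lowest saline point in each panel while MABsallo-VEGF replicate 4 is the lowest of its group in all panels but that of Smarcal1.

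Of the remaining Snf2 ATPases, Smarcal1 (ENSRNOG00000016503) rose in MABsallo. It rewinds DNA at stalled replication forks, and its counts were 754, 251, 432 and 401 in saline, 1612, 596, 1348 and 699.8 in MABsallo and 665, 467, 752 and 481 in MABsallo-VEGF. Saline replicate 6 exceeded 2 of the MABsallo samples, and the log2 fold change was 1.19 ± 0.30 (SE) with adjusted p = 0.0139, and 0.44 ± 0.30 (SE) with adjusted p = 0.455 in MABsallo-VEGF. Atrx, which places histone H3.3 in heterochromatin, had 2827, 1070.1, 1594 and 1756 in saline, 3657, 3140.2, 2677 and 3624 in MABsallo and 3953, 3826, 3753 and 2008 in MABsallo-VEGF. Saline replicate 6 exceeded the lowest MABsallo sample and MABsallo-VEGF replicate 4. Atrx differed by 0.93 ± 0.26 (SE), adjusted p = 0.0222, in MABsallo. In MABsallo-VEGF it differed by 0.94 ± 0.26 (SE), adjusted p = 0.0897, and by 1.41 ± 0.24 (SE), adjusted p = 0.000517, with the 22 samples. Smarcad1 had 434, 412, 500.3 and 369.5 in saline, 895, 574, 489 and 808 in MABsallo and 627, 867, 560 and 347 in MABsallo-VEGF, and the groups overlapped. None of the 5 tested ARID genes outside SWI/SNF was called at 3d against saline with all samples. Arid3a, Arid4a and Arid5b had estimates of 1.54, 0.81 and 0.82 in MABsallo, and Arid3b and Arid5a of -0.64 and -0.65. With the 22 samples Arid3a was called in MABsallo (2.26 ± 0.60 (SE), adjusted p = 0.0099) and in MABsallo-VEGF (2.73 ± 0.64 (SE), adjusted p = 0.00598), and Arid4a in MABsallo-VEGF (1.30 ± 0.45 (SE), adjusted p = 0.0492).

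Other subunits and Snf2 ATPases were a list of 66 genes, of which 65 were tested. Their shares below were smaller than those of the 40 genes, or 0 in both. This did not hold throughout: in saline, 3d lay wholly above 7d for 15.4% of the 65 and 10% of the 40. Over all genes, this was so for 921 of 16287. For the MABsallo effect at 3d against that at 7d, 16.9% and 12.5% had an unadjusted limma p below 0.05, beside 13.6% of all genes. In MABsallo against saline at 3d 9 of the 65 rose (13.8%, beside the background of 9.4%) and none fell. They were the BAF subunits Bcl7a, Bcl11b and Bicral, the NuRD subunits Mbd3 and Gatad2b, the ISWI partners Baz2b and Rsf1, and Yy1 and Epc1 of the INO80 and TIP60 complexes. Yy1 rose by 2.72 and Epc1 by 2.85 on the log2 scale. In MABsallo-VEGF none of the 65 passed limma's test, and 19 (29.2%) had an unadjusted p below 0.05, beside 17.9% of all genes. At 3d against 7d 16 of the 65 were higher in MABsallo (24.6%, background 17%) and 13 in MABsallo-VEGF (20%, background 13.1%).

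Between MABsallo-VEGF and MABsallo at 3d none of the 40 genes passed the test in limma, edgeR or DESeq2, with 2 genes (Chd5 and Smarcal1, 5%) at an unadjusted p below 0.05 in limma, beside 6.13% of all genes. Smarcal1 differed by -0.75 ± 0.30 (SE). The median difference was -0.06 over the 40 genes.

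The 3d against 7d comparison, which asks how the urethra changed with time after SVD, gave the largest counts. In MABsallo 17 of 40 genes were higher at 3d (42.5%, background 17%) and 1 was lower (background 6.05%). In MABsallo-VEGF 17 were higher (42.5%, background 13.1%) and 2 lower (background 2.24%). The medians were 0.85 and 0.93, beside 0.06 and 0.05 for all genes. The 3d and 7d samples were fully apart, 3d higher, for 23 genes in MABsallo (57.5%, all genes 17.7%) and 26 in MABsallo-VEGF (65%, all genes 13.8%). Leaving out any sample left 17 to 22 called genes in MABsallo and 15 to 21 in MABsallo-VEGF. With all samples, limma called 2765 of all genes higher and 986 lower in MABsallo, and 2132 and 365 in MABsallo-VEGF. Counts over all genes with a sample left out are not given here.

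Markers of other cells also moved with time. The smooth muscle markers summed to 80530 to 147542 normalized counts in MABsallo at 3d and 197766 to 225054 at 7d, and the mast cell markers to 230 to 369 and 499 to 851, both without overlap. In MABsallo-VEGF the smooth muscle sums were 58449 to 130283 at 3d and 121966 to 289571 at 7d and the mast cell sums 178 to 608 and 431 to 1173, both with overlap. Adipocyte markers summed to at most 157 in MABsallo at 3d and to 123 to 12604 at 7d. Small noncoding RNA, given above for 3d, summed to 1044 to 2440 at 7d in MABsallo and 1505 to 1941 in MABsallo-VEGF, below every 3d sample of the same group, as AY172581.24 was. The part of these differences in the results by time was not tested.

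The 8 genes that rose against saline were all called higher at 3d than at 7d in MABsallo. They had been picked as high in the same 4 MABsallo samples, so that this is a description only. In MABsallo-VEGF 7 of them, all but Smarcal1, were called. Chd9 had 257 to 533 counts in MABsallo and 261 to 435 in MABsallo-VEGF at 7d, every one below all cell-treated samples at 3d. It was higher at 3d by 3.16 ± 0.46 (SE) in MABsallo, adjusted p = 8.24e-05, and by 2.84 ± 0.46 (SE) in MABsallo-VEGF, adjusted p = 0.000315. Pbrm1 had 379 to 745 and 307 to 635 counts at 7d, with differences of 2.49 ± 0.38 (SE) and 2.48 ± 0.38 (SE) and adjusted p = 0.000113 and 0.000228. Atrx had 604 to 1269.9 and 832 to 965 counts at 7d and was higher at 3d by 1.78 ± 0.26 (SE) and 1.88 ± 0.26 (SE), adjusted p = 8.39e-05 and 0.00014. Of the SWI/SNF ATPases, Smarca2 was called by time and Smarca4 was not. Smarca2 had 1159 to 3351 counts in MABsallo and 1272 to 2109 in MABsallo-VEGF at 7d and was higher at 3d by 1.64 ± 0.37 (SE) and 1.76 ± 0.37 (SE), adjusted p = 0.00195 and 0.00195. Its paralog Smarca4 had 2847 to 3778 and 2703 to 3881 at 7d and differed by 0.34 ± 0.21 (SE) and 0.43 ± 0.21 (SE), which did not pass. Smarca1 was higher at 3d by 2.43 ± 0.47 (SE) and 1.43 ± 0.47 (SE), adjusted p = 0.00063 and 0.035.

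Outside SWI/SNF proper, Arid3a had the largest difference in time among the ARID genes, 2.60 ± 0.66 (SE) and 3.50 ± 0.66 (SE) at 3d against 7d. Arid3a is a DNA-binding factor known from B cells. Arid4a and Arid5b were also higher at 3d in both cell groups. Arid5a, an RNA-binding protein that stabilises inflammatory transcripts, was the gene lower at 3d in both, at -1.36 in MABsallo (adjusted p = 0.0114) and -1.24 in MABsallo-VEGF (adjusted p = 0.029). Its counts were 121, 274, 148 and 152 in MABsallo at 3d and 279, 503, 280.2 and 830 at 7d. Without MABsallo replicate 13 at 7d no gene was called lower in MABsallo, and without MABsallo-VEGF replicate 7 or 12 at 7d none was in MABsallo-VEGF. The other gene lower at 3d in MABsallo-VEGF was Actl6b, with 0 reads in all 4 samples at 3d and 0, 9, 9 and 6 reads at 7d, too few for a fold change. Ino80c had a negative estimate in MABsallo with adjusted p = 0.00348 but missed the fold limit.

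In saline 10 genes were higher at 3d than at 7d (25%, background 2.59%) and none was lower. They were Ino80d, Arid5b, Chd1, Smarcc2, Smarca2, Chd9, Arid4a, Pbrm1, Bptf and Smarcc1. The 3d samples lay wholly above the 7d samples in only 4 of the 40 genes (10%), beside 921 of 16287 over all genes. Smarca2 had 5923, 1356, 4775 and 5117 counts at 3d and 1495, 1073, 938 and 959 at 7d. Replicate 8 at 3d lay inside the 7d range and the other 3 well above it, and the difference was 1.77 ± 0.37 (SE), adjusted p = 0.015. Ino80d had 64.3, 62.2, 40.2 and 44 counts at 7d and was higher at 3d in every sample, by 2.53 ± 0.53 (SE), adjusted p = 0.015. The count of called genes rested on single libraries. Without replicate 6 at 3d, or with the 22 samples (background 0.129%), limma called none. In each case 15 genes had an unadjusted p below 0.05, and the share of all genes below it is not given. With all samples 19 (47.5%) were below it, beside 18.8% of all genes. Without saline replicate 5 at 7d limma also called none. It called 4, 2 and 4 without replicates 9 and 10 at 3d and replicate 3 at 7d, and 16 without replicate 8 at 3d. DESeq2 and edgeR called 16 and 13 on all samples. Over all genes, limma called 422 higher and 98 lower with all samples, and 21 and 10 with the 22. Counts over all genes in the other fits are not given here. Whether the swings are particular to the remodelers was not tested.

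Whether the effect of the cells differed between 3d and 7d was tested as an interaction. With 24 samples none of the 40 genes passed for MABsallo or MABsallo-VEGF in limma, edgeR or DESeq2, and 5 (12.5%) had an unadjusted p below 0.05 in limma for each, beside 13.6% and 8.23% of all genes. No sample left out alone brought a gene past the threshold. With the 22 samples, whose removals widen the 3d difference as given above, 3 genes passed for MABsallo (Srcap, Smarcal1 and Atrx, 3.02% of all genes called higher) and 2 for MABsallo-VEGF (Atrx and Pbrm1, 3.16%). With saline replicate 8 also left out these counts were 0 and 1. The interaction of Atrx was 0.94 ± 0.37 (SE) and 1.04 ± 0.37 (SE) with 24 samples, adjusted p = 0.276 and 0.532, and 1.19 ± 0.30 (SE) and 1.52 ± 0.31 (SE) with 22, adjusted p = 0.031 and 0.0132.

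At 7d none of the 40 genes was called between any 2 groups by limma, edgeR or DESeq2. For MABsallo and MABsallo-VEGF against saline 32 of the 40 estimates were positive in each case (80%), beside 51.5% and 50.5% of all genes, with medians of 0.34 and 0.34. An unadjusted p below 0.05 was found for 11 (27.5%) and 5 (12.5%) genes, beside 6.23% and 6.34% of all genes. Arid5b and Chd8 are given as examples, chosen after their values were seen. Arid5b had 419, 436, 519 and 248 counts in saline, 1059, 1758, 652 and 1008 in MABsallo and 1125, 1389, 469 and 1106 in MABsallo-VEGF. The estimate was 1.42 ± 0.42 (SE) for MABsallo and 1.27 ± 0.42 (SE) for MABsallo-VEGF, with adjusted p = 0.732 and 0.576. Chd8 had 1119.6, 1394, 1042 and 924 counts in saline, 2181, 1930.4, 1453 and 1901 in MABsallo and 1745, 1991, 1294 and 1803 in MABsallo-VEGF, where the first 2 values are those of the samples labelled recovery. Every MABsallo sample was above every saline sample in Chd8, with adjusted p = 0.732. Between MABsallo-VEGF and MABsallo none of the 40 genes passed, and none reached an unadjusted p of 0.05.

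Ratios between paralogs that occupy the same place in a complex were compared at 3d with two-sided exact permutation tests, 14 tests in all with the p adjusted over them. Each ratio is the log2 of the first gene's normalized count over the second's, and only its change between groups is compared. With 4 against 4 samples the smallest p is 0.0286. Over 14 tests, an adjusted p below 0.05 would need most of them at that smallest p. A single pair could thus not pass, and the adjusted p decides nothing about it. Smarcc2 over Smarcc1 was -0.22 ± 0.32 (SD, n = 4) in MABsallo, -0.53 ± 0.34 in MABsallo-VEGF and -1.53 ± 0.65 in saline. Both cell groups lay wholly above saline, with p = 0.0286 each in the exact test and 0.133 after adjustment. Arid1b over Arid1a was -0.14 ± 0.36 in MABsallo and 0.63 ± 0.52 in saline, without overlap (exact permutation p = 0.0286, adjusted 0.133), and -0.09 ± 0.24 in MABsallo-VEGF (p = 0.0571, adjusted 0.2). Smarca2 over Smarca4 was 0.44 ± 0.41, 0.43 ± 0.18 and 0.17 ± 0.71 in MABsallo, MABsallo-VEGF and saline and overlapped. At 7d that ratio lay between -1.71 and -0.17 in the 12 samples. The ratios of Smarcd3 to Smarcd1, Smarca1 to Smarca5 and Chd3 to Chd4 overlapped between groups, and Actl6b was too low for its ratio to be read.

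**Figure D5:**
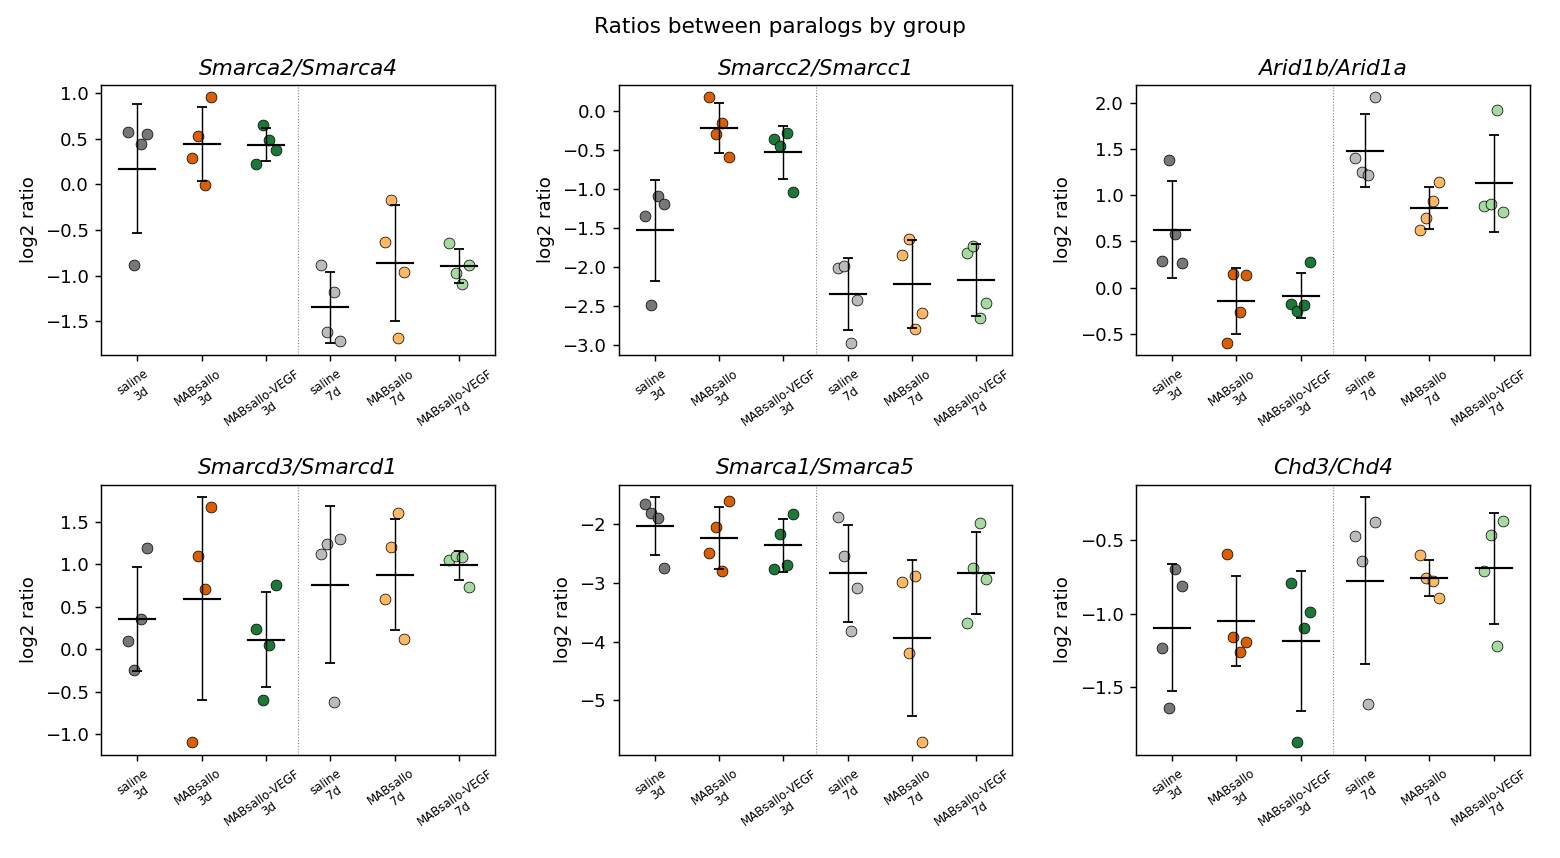
Log2 ratio of 6 paralog pairs (vertical axis) in the 6 groups, 1 point per sample with the mean ± SD (n = 4). Smarcc2 over Smarcc1 lies between -0.59 and 0.18 in MABsallo at 3d and at -1.09 or lower in saline, while the ratios in the lower row overlap between groups at 3d.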

How the data were processed

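Urethral RNA was extracted with Tripure and RNeasy columns, made into QuantSeq 3ʹ libraries and sequenced single-end on a HiSeq4000. As the study's methods state, the authors trimmed reads with fastq-mcf, aligned them with HISAT2 to Rnor6.0, discarded multi-mapped reads and counted genes with HTSeq. The strand setting is not given in the sources used here, so overlapping genes may share reads. The deposited values are a signal, gene counts divided by DESeq2 size factors. Whole reads were recovered for 100% of values (relative tolerance 1e-06), and libraries held 2170695 to 10166052 reads.

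Genes with a mean of at least 2 were tested with limma 3.58.1 (R 4.3.3) on log2(value + 1). This was 1 fit of the 6 groups with a trended variance and Benjamini-Hochberg adjustment over 16287 genes. Fold changes of low genes depend on the added constant and on samples without reads, as given for Srcap, and are not lower bounds. edgeR 4.0.16 and DESeq2 1.42.0 were run on the recovered reads as alternatives. Paralog ratios were tested with exact permutation tests (scipy 1.17.1). The code was tested on simulated data. Where a symbol had several rows (here Atrx), the row with the highest mean was used. Values in every 3d sample were to be given for ATPases and the 5 most changed called genes, and other genes were named in addition. The genes and lists were chosen with earlier results of these data known. Each library was taken as 1 rat, and replicate numbers were not taken to pair samples. Limits from reads cover counting error only. Alternatives were other pseudocounts, filters, scalings, tools and samples left out.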

Additional observations from a re-analysis of the deposited data

Results flagged for a closer look

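In 132 groups of 4 values the highest or lowest sample was compared with the other 3 by Dixon's ratio, and in 12 groups it lay past the 95% critical value. Chance gives this in about 1 in 20 groups. Values are normalized counts.

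MABsallo-VEGF replicate 4 at 3d was low in Chd1 (1069, others 2860 to 3209), Srcap (107, others 425 to 470.4), Atrx (2008, others 3753 to 3953) and Pbrm1 (1273, others 3209 to 3363). Saline replicate 8 at 3d was low in Chd3 (1928, others 3698 to 3934) and Chd8 (937, others 1833 to 2004). MABsallo replicate 1 at 3d was high in Chd3 (9124, others 4420.4 to 4747) and Smarcc2 (4707, others 2188 to 2447). These 3 samples hold 8 of the 12.

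At 7d Chd7 was high in saline replicate 3 (522.5, others 311 to 343) and low in MABsallo-VEGF replicate 11 (372, others 827 to 831). Chd9 was high in saline replicate 2 (301, others 199.6 to 214), and Ep400 was low in MABsallo replicate 11 (1641, others 2376 to 2407).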

How the results depend on the processing

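Counts of called remodeler genes against saline at 3d depended on samples and fits, and the cause was not tested. In MABsallo, 8 genes became 5 with every library scaled to the same total, 5 with edgeR and 0 when only the compared groups were fitted. They became 13 with DESeq2 on 22 samples and 5 with 21 samples. Over all genes, 1997 calls in either direction became 2123, 1342, 5, 2931 and 1567 in these settings. In MABsallo-VEGF, 0 became 2 with a pseudocount of 5, 3 with DESeq2, 12 with 22 samples (10 with edgeR, 11 with DESeq2) and 6 with 21 samples. Over all genes, 5 calls became 181, 397, 2213 (1901 with edgeR, 2288 with DESeq2) and 1157. Leaving out 1 sample at a time gave 1 to 12 and 0 to 9 genes, beside 369 to 2816 and 0 to 1258 of all genes. For saline at 3d against 7d, 10 became 16 with DESeq2 and 0 when only these groups were fitted or with 22 samples. Leaving out 1 sample gave 0 to 16. Over all genes, 422 higher and 98 lower became 21 and 10 with 22 samples, and counts in the other settings are not given here. The interactions, 0 and 0, stayed so with edgeR and DESeq2 on all samples. On 22 samples they became 3 for MABsallo and 2 for MABsallo-VEGF with limma, 2 and 1 with edgeR, and 5 and 4 with DESeq2. On 21 samples they were 0 and 1 with limma. Over all genes, only the limma shares on 22 samples are given, above. The 22-sample fits with edgeR and DESeq2 and the 21-sample fits were chosen after seeing the data. The median change of the genes stayed between 0.45 and 0.89 in MABsallo and between 0.30 and 0.81 in MABsallo-VEGF under all alternatives run for it. Changes of single genes were followed only for genes called against saline at 3d with all samples or with 22 samples. Over these changes, 331 settings kept the side of the threshold, 46 brought a gene past it, 31 lost it and none changed its direction. The genes had been picked for large changes, so that the unchanged direction is a description only and does not extend to the other genes. The Chd3 over Chd4 ratio in MABsallo changed sign, from 0.04 to -0.0007, with 22 samples.

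With the replicate number as a block (correlation 0.133), 8 remodeler genes were called in MABsallo and 0 in MABsallo-VEGF against saline at 3d. Over all genes these counts were 2073 and 6. At 3d against 7d, 10 remodeler genes were called in saline and 18 in each cell group, and the counts over all genes are not given here. Samples with the same number correlated above 0.1 in 5 of 13 pairs. Between the 2 cell groups at 3d, replicates 1 to 4 had correlations of 0.222, 0.1505, 0.0734 and 0.2535. Replicate 11 had 0.1679 between the cell groups at 7d. The other pairs, all between 3d and 7d, lay from -0.0545 to 0.1106. Samples of unlike number were not compared, so whether the numbers mark a pairing was not tested. None was taken because the labels state none. Srcap, Chd5 and Actl6b rest on few reads.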
